A study of Mus musculus with 32 samples.

Results

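The genes described here are 10 single S100A genes, S100a3, S100a4, S100a6, S100a7a, S100a8, S100a9, S100a10, S100a11, S100a14 and S100a16, picked by symbol from the 55401 genes counted in mouse epidermis. All 10 were found and all 10 passed the filter on low counts, which kept 15546 genes. Other S100 genes, the S100-fused genes of the cornified layer, receptors and binding partners are set beside them.

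S100 proteins are small calcium-binding proteins that carry a pair of EF-hand motifs and mostly work as dimers. Inside cells they bind partner proteins such as annexins, and several are released by stressed epithelium and by myeloid cells, where they act as alarmins on receptors such as Tlr4 and the receptor for advanced glycation end products. Most of their genes lie in the epidermal differentiation complex, beside those for filaggrin, loricrin and other proteins of the cornified layer.

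RNA was taken from the epidermis of 32 hairless SKH-1/SV129/BL6/J mice, aged 10 to 14 weeks. Wild-type (WT, +/+) mice and mice labelled Ppard-/- (KO, lacking the nuclear receptor PPARβ/δ) were either sham handled (Control) or exposed once on the back to 120 mJ/cm2 of UV. The irradiated mice were killed 24 h after UV. The labels give a time of 24 h for them and of 0 h for the Control mice, so every UV comparison sets 24 h against 0 h. Each of the 8 groups of sex, genotype and exposure held 4 mice, and each mouse was its own library. The epidermis had been separated from the dermis with ammonium thiocyanate.

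The libraries held 22919428 to 40653581 reads on genes, with a median of 27600228. Levels are in cpm, reads per 1000000 reads on genes after TMM scaling for library composition. Differences are log2 fold changes from the quasi-likelihood fit of edgeR, with p adjusted over the 15546 genes by the method of Benjamini and Hochberg and called under 0.05. Markers of suprabasal keratinocytes summed to 62540 to 108400 cpm in Control mice of both genotypes and to 9362 to 33430 cpm after UV. The library of irradiated Ppard-/- female 2 stood apart: its dermal fibroblast markers summed to 2011 cpm, 55.5 times the next mouse of its genotype and exposure, and its macrophage markers to 1399 cpm. Reads over the whole Ppard gene were still present in mice labelled Ppard-/-, at 70.3 to 88.9 cpm without UV against 87.3 to 105 cpm in WT mice (log2 difference −0.26, edgeR adjusted p = 0.156) and at 175 to 239 against 252 to 326 cpm after UV (−0.42, edgeR adjusted p = 0.00114). Counts over a whole gene cannot check the loss of part of it, so the genotypes are used as labelled. In bulk tissue, fewer cells of a type and less RNA per cell cannot be told apart.

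Among the S100A genes, 24 h after UV the alarmins S100a7a, S100a8 and S100a9 showed the largest changes, all of them upward, in both genotypes. S100a6, S100a10, S100a11, S100a14 and S100a16 rose by smaller amounts, S100a4 fell in WT mice, and S100a3 did not pass the test. In WT mice 8 of the 10 were called higher and 1 lower at an adjusted p under 0.05. UV moved most of the epidermal transcriptome, and 34.5% of all tested genes were called higher and 36.5% lower in the same comparison. In the Ppard-/- mice 8 were higher and 0 lower, beside 37.3% higher and 33.5% lower of all genes. The median log2 fold change was 1.01 over the 10 genes and −0.01 over all genes in WT mice, and 1.00 and 0.09 in Ppard-/- mice.

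**Figure D1:**
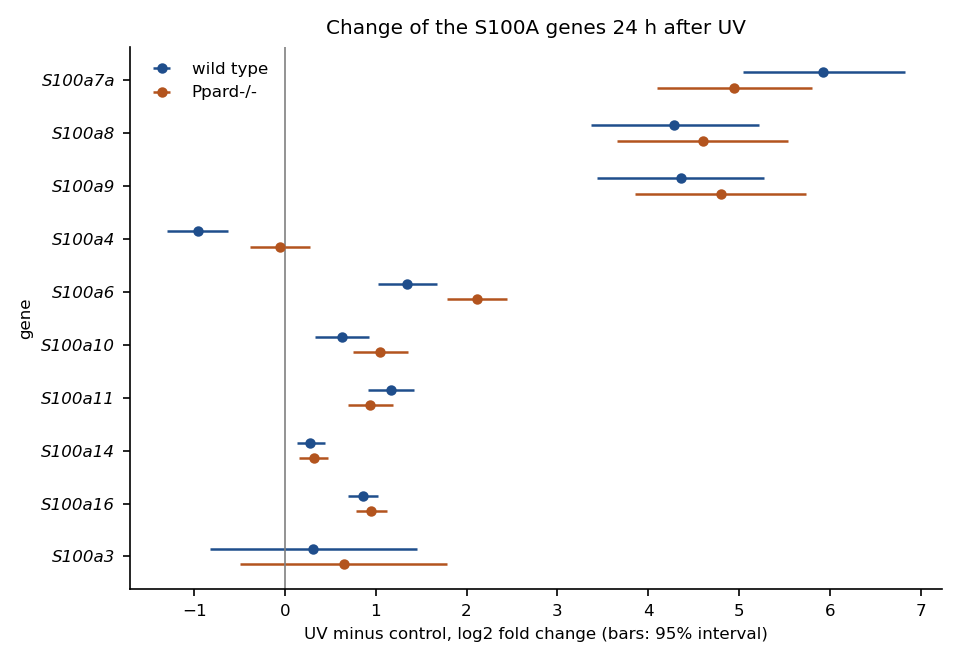
Log2 fold change of each S100A gene 24 h after UV (x axis) in WT (blue) and Ppard-/- (brown) epidermis, from the edgeR fit over 32 mice, with bars for the 95% interval. S100a7a, S100a8 and S100a9 lie above 4 in both genotypes, S100a4 lies at −0.96 in WT and −0.05 in Ppard-/- mice, and the bars of S100a3 cross 0 in both.

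S100a8 and S100a9 encode the 2 subunits of calprotectin, which chelates zinc and manganese and is a ligand of Tlr4. S100a8 (chr3:90668978-90670035, + strand, GRCm38) stood at 5.67 to 45.5 cpm in the 8 WT Control mice, with a median of 22.8, and at 270 to 669 cpm, median 357, in the 8 irradiated WT mice. The groups were far apart, with every irradiated mouse above every Control mouse. The log2 fold change was 4.29 ± 0.47 (SE, n = 8 and 8; edgeR adjusted p = 5.09e-09), or 19.6-fold. S100a8 in Ppard-/- mice went from 1.06 to 36.1 cpm, median 15.3, to 247 to 682 cpm, median 289 (log2 4.60 ± 0.48, edgeR adjusted p = 1.93e-09).

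S100a9 (chr3:90692632-90695721, − strand) followed the same course. It measured 6.41 to 56.97 cpm in WT Control mice, median 28.2, and 357 to 864 cpm, median 457, after UV. The log2 fold change was 4.36 ± 0.47 in WT mice (edgeR adjusted p = 3.57e-09) and 4.80 ± 0.48 in Ppard-/- mice (edgeR adjusted p = 9.33e-10), where the levels were 1.89 to 45.9 cpm, median 15.4, without UV and 348 to 914 cpm, median 398, after it. Neither genotype showed any overlap between Control and irradiated mice. The lowest mouse of all for S100a8 and S100a9 was Control Ppard-/- male 3, at 1.06 and 1.89 cpm.

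Both genes varied widely among mice of 1 group, and they varied together. After removal of the 8 group means, the log2 levels of S100a8 and S100a9 correlated across the 32 mice with Pearson r = 0.99 and Spearman rho = 0.99 (within-group permutation p = 1e-05 for each, the smallest that 100000 permutations can give, adjusted p = 0.00045 over 45 pairs of S100A genes). Leaving out the 2 mice farthest from the median gave r = 0.98. The ratio of S100a8 to S100a9 reads, not corrected for length, was 0.705 to 0.997 in WT Control and 0.738 to 0.813 in irradiated WT mice. It was 0.558 to 1.045 in Ppard-/- Control and 0.653 to 0.781 in irradiated Ppard-/- mice, a wider range without UV in both genotypes.

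S100a7a, the mouse relative of psoriasin, an antimicrobial protein of inflamed keratinocytes, had the largest change of the 10. Its gene (chr3:90654017-90658669, + strand) had 2 to 34 reads per library in WT Control mice, or 0.0741 to 1.35 cpm, median 0.357. After UV it had 547 to 1708 reads, or 18.7 to 62.1 cpm, median 33.5. No irradiated mouse came near the Control range, and the log2 fold change was 5.93 ± 0.46 (edgeR adjusted p = 4.43e-12). Ppard-/- levels were 0.240 to 2.55 cpm without UV and 18.5 to 49.7 cpm after it (log2 4.95 ± 0.43, edgeR adjusted p = 6.29e-11). Of the 15546 genes, 0.585% had a larger log2 rise than S100a7a in WT mice, 1.44% than S100a9 and 1.52% than S100a8.

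Because S100a7a, S100a8 and S100a9 had the largest rises and S100a4 was the one gene that fell, the sequence upstream of these 4 is shown. The RefSeq windows (GRCm38.p6, 250 bases before to 50 after a gene start) matched 8 of the 10 genes, the others being S100a10 and S100a14. Only stretches outside GENCODE M21 exons are printed, 5′ to 3′ on the gene's strand, with matched motifs in capitals. S100a4 was added after its values were seen.
S100a8 chr3:90668821-90668977 (+): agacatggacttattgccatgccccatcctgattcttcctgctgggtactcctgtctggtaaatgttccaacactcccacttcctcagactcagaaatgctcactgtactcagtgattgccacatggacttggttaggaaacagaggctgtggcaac
S100a9 chr3:90695722-90695971 (−): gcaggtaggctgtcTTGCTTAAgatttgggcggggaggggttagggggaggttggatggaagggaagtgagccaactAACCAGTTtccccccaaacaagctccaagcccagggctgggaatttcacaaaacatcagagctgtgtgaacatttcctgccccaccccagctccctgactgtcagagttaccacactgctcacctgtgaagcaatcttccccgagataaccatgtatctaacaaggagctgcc
S100a7a chr3:90654099-90654286 (+): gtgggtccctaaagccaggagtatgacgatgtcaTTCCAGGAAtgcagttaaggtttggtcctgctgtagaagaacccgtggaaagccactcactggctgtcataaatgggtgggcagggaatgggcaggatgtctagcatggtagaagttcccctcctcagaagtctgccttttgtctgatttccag
S100a4 chr3:90603520-90603769 (+): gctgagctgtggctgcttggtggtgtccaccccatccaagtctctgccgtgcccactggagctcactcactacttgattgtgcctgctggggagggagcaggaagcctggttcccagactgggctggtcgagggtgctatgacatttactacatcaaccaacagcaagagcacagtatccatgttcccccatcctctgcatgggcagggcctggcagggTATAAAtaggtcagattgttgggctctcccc

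Searched on both strands were AP-1 (TGANTCA), C/EBP (TTGCNNAA), STAT (TTCNNNGAA), Grainyhead (AACCNGTT), a PPAR direct repeat (2 copies of AGGNCA, 1 base apart) and the core promoter box whose letters are TATAAA, called TATA here. In the S100a9 stretch the capitals mark a C/EBP and a Grainyhead match, in S100a7a a STAT match and in S100a4 a TATA match from base −31 to base −26. The printed S100a8 stretch held none, and the S100a7a stretch lies between exons of the longer GENCODE gene model. Outside the printed stretches, the S100a8 window had a TATA match from base −30 to base −25. The S100a9 window had one from base 0 to base 5, at the gene start and not before it. Over all 32851 windows of 300 bases, 10.8% held the C/EBP letters, 2.09% Grainyhead, 8.30% STAT, 13.6% TATA, 7.81% AP-1 and 0.381% the PPAR repeat. AP-1 letters occurred in the windows of S100a11, at 2 places, and of S100a16, Grainyhead and TATA letters occurred in an S100a3 window, and no motifs overlapped each other. These are matches of letters, with no bearing on whether a factor binds.

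Neutrophils carry large amounts of S100a8 and S100a9, so their other markers are given beside these rises. After UV 34.5% of all genes were called higher and 36.5% lower in WT mice, and 37.3% and 33.5% in Ppard-/- mice. Of 13 neutrophil markers 8 were tested, of which 4 were called higher and 1 lower after UV in WT mice and 6 higher and 2 lower in Ppard-/- mice. The others were too low to be tested: among them Elane had 0 reads in all 32 mice, Ly6g had 0 in every Control mouse and reached 0.104 cpm in irradiated WT and 0.376 cpm in irradiated Ppard-/- mice, and Camp stayed at or below 0.102 cpm. The summed cpm of the list was 79.7 to 111 in WT Control and 45.4 to 75.6 in irradiated WT mice, and 82.2 to 114 and 65.9 to 124 in Ppard-/- mice. Trem1 rose by 3.96 on the log2 scale in WT mice (edgeR adjusted p = 6.81e-09) and by 5.82 in Ppard-/- mice (edgeR adjusted p = 2.7e-11). Csf3r rose by 2.77 (edgeR adjusted p = 1.44e-05) and 3.87 (edgeR adjusted p = 1.83e-07), and Mmp8, Mpo and, in Ppard-/- mice, Retnlg and Mmp9 were also called higher. In WT mice Il1r2, the list's most abundant gene in WT Control mice, fell (−2.40, edgeR adjusted p = 1.28e-10). The part of neutrophils in the rise of S100a8 and S100a9 was not tested. Within groups, the correlation of S100a8 with the summed neutrophil markers did not pass (r = 0.37, within-group permutation adjusted p = 0.33). Most of that sum was Il1r2, Cxcr2 and Mmp9, none of them called higher in WT mice (log2 fold changes −2.40, 0.03 and −0.46). In WT mice the median of Trem1 went from 0.115 to 2.96 cpm and that of Csf3r from 0.679 to 5.23 cpm. The median of the sum went from 90.1 to 63.3 cpm. The sum and its correlation thus say little of the neutrophil markers that rose.

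S100a4, known from fibroblasts, dendritic cells and migrating cells and as a binding partner of non-muscle myosin, went the other way. Its gene (chr3:90603771-90606045, + strand) stood at 8.10, 6.19, 5.59 and 7.01 cpm in the 4 WT Control males and 6.57, 7.22, 6.48 and 6.65 cpm in the 4 females. After UV the WT males had 3.17, 3.60, 3.86 and 4.76 cpm and the females 2.11, 2.46, 2.80 and 5.01 cpm. Every irradiated WT mouse lay below every Control WT mouse, and the log2 fold change was −0.96 ± 0.17 (edgeR adjusted p = 1.45e-05).

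S100a4 in Ppard-/- mice did not pass the test after UV. The Control males had 5.52, 6.66, 3.87 and 5.09 cpm and the females 6.62, 6.74, 6.72 and 4.58 cpm. With UV the males had 7.33, 3.97, 3.99 and 4.80 cpm and the females 5.01, 4.96, 5.61 and 8.51 cpm. These ranges overlapped almost fully, and the log2 fold change was −0.05 ± 0.17 (95% interval −0.39 to 0.28, edgeR adjusted p = 0.785).

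After UV, S100a4 was higher in Ppard-/- than in WT mice by 0.67 ± 0.17 on the log2 scale (edgeR adjusted p = 0.0317), with overlapping ranges. It was the only one of the 10 called in that comparison, in which 2.69% of all genes were called higher and 0.618% lower. The difference between the UV effects of the genotypes was 0.91 ± 0.24 and missed the threshold (edgeR adjusted p = 0.0648). The call after UV was lost in males alone (0.37, edgeR adjusted p = 0.863) and held in females alone (0.91, edgeR adjusted p = 0.0436). Leaving out any of 8 single irradiated mice also ended it, with edgeR adjusted p from 0.0538 without WT male 3 to 0.107 without Ppard-/- male 1. The others were WT males 1 and 2, WT females 1, 2 and 3 and Ppard-/- female 4, while leaving out the fibroblast-rich Ppard-/- female 2 kept it (edgeR adjusted p = 0.0447).

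In WT mice Langerhans cell markers fell beside S100a4, and in Ppard-/- mice they fell where S100a4 was not called. Of all genes, 36.5% were called lower and 34.5% higher after UV in WT mice, and 33.5% and 37.3% in Ppard-/- mice. Of the 7 markers, 6 were called lower and 0 higher after UV in WT mice and 5 and 0 in Ppard-/- mice. Their summed level was 454 to 978 cpm in WT Control and 220 to 333 cpm in irradiated WT mice, against 283 to 909 and 229 to 794 cpm in Ppard-/- mice. All 7 markers of the list had reads in every group, and Cd207, which encodes langerin, fell in WT mice from a median of 31.4 to 9.83 cpm (edgeR adjusted p = 4.33e-08) and in Ppard-/- mice from 29.6 to 10.8 cpm (edgeR adjusted p = 1.34e-06). Across the 32 mice with group means removed, S100a4 correlated with the summed Langerhans cell markers (r = 0.48, rho = 0.58, within-group permutation adjusted p = 0.0401 and 0.0205 over 110 relations of S100A genes with marker lists, r = 0.45 without 2 mice). Most of that sum was Cd74, H2-Aa, H2-Ab1 and H2-Eb1, with medians of 341, 157, 162 and 136 cpm beside 841 cpm for the sum in WT Control mice. The sum and its correlation thus follow these genes more than Cd207, which reached at most 17.95 cpm in irradiated Ppard-/- mice, where the sum reached 794 cpm. With macrophage and monocyte markers, S100a4 passed by rho alone (rho = 0.59, within-group permutation adjusted p = 0.0459, against r = 0.34, adjusted p = 0.425, and r = 0.61 without 2 mice). Those markers summed to 48.2 to 109 cpm in WT Control and 115 to 202 cpm in irradiated WT mice, and to 37.2 to 119 and 117 to 1399 cpm in Ppard-/- mice. T cell markers were at 18.1 to 97.4 cpm in WT Control and 12.2 to 42.3 cpm in irradiated WT mice. In Ppard-/- mice they were at 37.25 to 86.97 and 17.76 to 44.3 cpm. Of the 7 tested, 0 were called higher and 7 lower after UV in WT mice, and 1 higher and 5 lower in Ppard-/- mice. Of 7 dermal fibroblast markers, 0 were called higher and 3 lower after UV in WT mice, and 0 either way in Ppard-/- mice. Fibroblast markers summed to 22.2 to 83.8 cpm in WT Control and 9.09 to 19.5 cpm in irradiated WT mice. In irradiated Ppard-/- mice, female 2 had 2011 cpm and the others 17.4 to 36.25 cpm. After UV 6 were called higher and 0 lower in Ppard-/- than in WT mice, beside 2.69% and 0.618% of all genes. S100a4 did not pass with their sum (r = 0.01, rho = 0.25, within-group permutation adjusted p = 0.992 and 0.602). The part of these cells in the S100a4 result was not tested. The S100a4 exons share 302 of 584 bases with Gm42674 on the same strand, which had 0 reads in all 32 mice, and the handling of reads in shared stretches is not given in the sources used here.

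**Figure D2:**
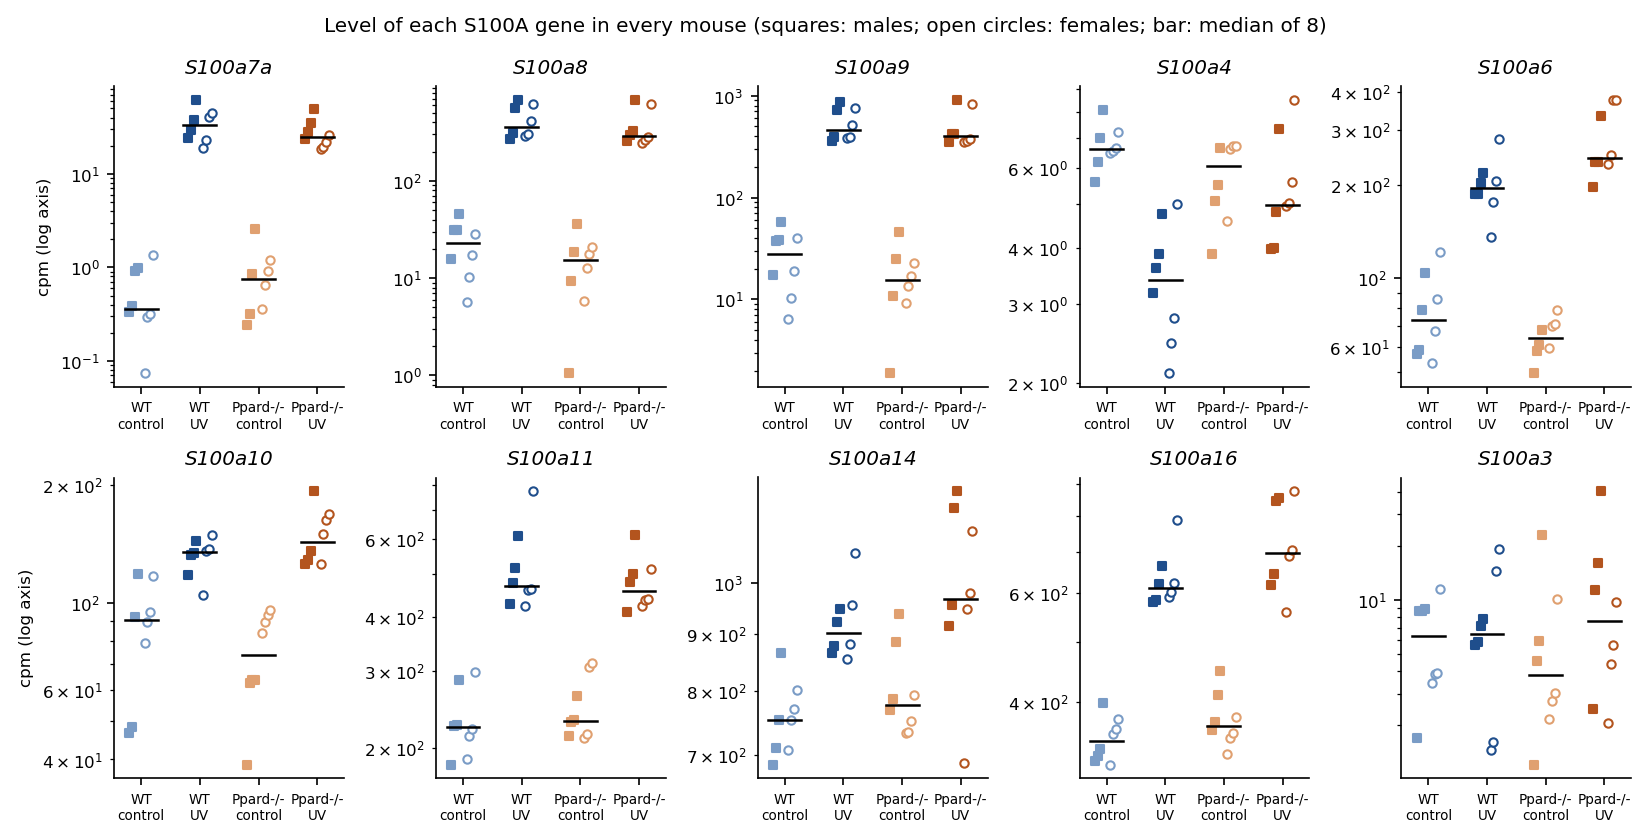
Level of each S100A gene (cpm, log axis) in every mouse, by genotype and exposure, with filled squares for males, open circles for females and a bar at the median of 8. The irradiated mice lie above all Control mice for S100a7a, S100a8, S100a9, S100a6, S100a11 and S100a16 in both genotypes. Irradiated WT mice lie below all Control WT mice for S100a4 (2.11 to 5.01 against 5.59 to 8.10 cpm). S100a3 spreads within each genotype and exposure, but little in irradiated WT males alone.

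S100a6, S100a10 and S100a11 are the annexin-binding genes of the set, calcyclin, p11 and calgizzarin. S100a6 (chr3:90612882-90624181, + strand), a gene of proliferating cells, rose from 53.4 to 122 cpm, median 73.4, to 136 to 281 cpm, median 195, in WT mice (log2 1.34 ± 0.17, edgeR adjusted p = 4.34e-08). The Ppard-/- mice went from 49.5 to 79.0 cpm, median 64.4, to 197 to 377 cpm, median 244 (2.12 ± 0.17, edgeR adjusted p = 1.19e-11). Control and irradiated mice did not overlap in either genotype. The difference between these effects, 0.77 ± 0.23, missed the threshold (edgeR adjusted p = 0.0892).

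S100a11 (chr3:93520488-93526287, + strand) rose from 184 to 298 cpm, median 223, to 423 to 773 cpm, median 470, in WT mice (1.17 ± 0.13, edgeR adjusted p = 4.98e-09) and by 0.94 ± 0.13 in Ppard-/- mice (edgeR adjusted p = 2.19e-07), from 211 to 313 to 410 to 613 cpm. Every irradiated mouse was above every Control mouse of its genotype. A processed copy of this gene, S100a11-ps, had 1 read in all 32 mice together, and reads that fit both places would not be counted.

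S100a10 (chr3:93555080-93564643, + strand), whose product binds annexin A2 at membranes, had a smaller change. In WT mice it went from 46.6 to 119 cpm, median 90.9, to 105 to 150 cpm, median 135, with some overlap (0.63 ± 0.15, edgeR adjusted p = 0.000597). The Ppard-/- levels of 38.8 to 96.2 cpm and 126 to 193 cpm were apart (1.05 ± 0.15, edgeR adjusted p = 8.27e-07).

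S100a14 and S100a16 are expressed in many epithelia and their products can bind each other. S100a14 (chr3:90526856-90528837, + strand) was at 687 to 865 cpm, median 753, in WT Control mice and at 854 to 1065 cpm, median 902, after UV. This small difference, 0.28 ± 0.08 on the log2 scale with slightly overlapping ranges, passed the test (edgeR adjusted p = 0.00218), as did 0.32 ± 0.08 in Ppard-/- mice (edgeR adjusted p = 0.000751), where levels of 734 to 937 and 690 to 1209 cpm overlapped. That call was lost in females alone (edgeR adjusted p = 0.0694). S100a16 (chr3:90537254-90543151, + strand) rose without overlap from 317 to 399 cpm, median 346, to 581 to 788 cpm, median 612, in WT mice (0.86 ± 0.09, edgeR adjusted p = 9.61e-10) and from 329 to 449 to 559 to 878 cpm in Ppard-/- mice (0.95 ± 0.09, edgeR adjusted p = 1.43e-10).

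Within groups, S100a14 and S100a16 varied together (r = 0.81, rho = 0.76, within-group permutation adjusted p = 0.0063 and 0.00465, r = 0.72 without 2 mice), as did S100a6 and S100a10 (r = 0.73, rho = 0.78, adjusted p = 0.00112 and 0.0009, r = 0.72 without 2 mice). With S100a8 and S100a9 these were the 3 of 45 pairs past the threshold, and 41 of the 45 had a positive r. S100a6 also correlated with the summed basal keratinocyte markers (r = 0.64, rho = 0.61, within-group permutation adjusted p = 0.0242 and 0.0477, r = 0.57 without 2 mice), which stood at 7117 to 16280 cpm in WT Control and 17030 to 29500 cpm in irradiated WT mice. These markers did not move together with UV. Of the 6, 3 were called higher and 2 lower in WT mice, beside 34.5% and 36.5% of all genes. The WT median of Krt14 went from 5592 to 16780 cpm, that of Krt5 from 4799 to 3434 and that of Krt15 from 249 to 4.26.

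S100a3, a protein of the hair cuticle, varied widely within each genotype and exposure, but little in irradiated WT males alone (5.57 to 7.86 cpm). It ranged from 1.69 to 11.5 cpm, median 6.28, in WT Control and from 1.45 to 19.2 cpm, median 6.47, in irradiated WT mice. The Ppard-/- ranges were 1.204 to 22.95 cpm, median 3.80, and 2.07 to 40.5 cpm, median 7.67. The log2 fold changes of 0.31 ± 0.58 (95% interval −0.83 to 1.45) and 0.65 ± 0.58 (−0.50 to 1.79) did not pass the test (edgeR adjusted p = 0.652 and 0.331), and the intervals leave room for a change of more than 1 on the log2 scale. Its level went with that of hair keratins. Across the 32 mice with group means removed, S100a3 correlated with the summed cpm of 10 hair shaft keratins with r = 0.93 and rho = 0.92 (within-group permutation adjusted p = 0.0011 for each) and r = 0.93 without 2 mice. Those keratins summed to 1.55 cpm in the lowest and 758 cpm in the highest mouse, and the highest, irradiated Ppard-/- male 1, also had the highest S100a3. S100a3 also correlated with melanocyte and Schwann cell markers (r = 0.65, rho = 0.62, within-group permutation adjusted p = 0.017 and 0.0205, r = 0.55 without 2 mice). Those markers were low, at 1.52 to 15.2 cpm in sum. The 2 mice left out, irradiated Ppard-/- male 1 and Control Ppard-/- male 3, also had the highest hair keratin sums (758 and 470 cpm). The 2 relations of S100a3 are thus not independent. Of the 110 relations, a set chosen after values were seen, 4 passed by both r and rho.

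**Figure D3:**
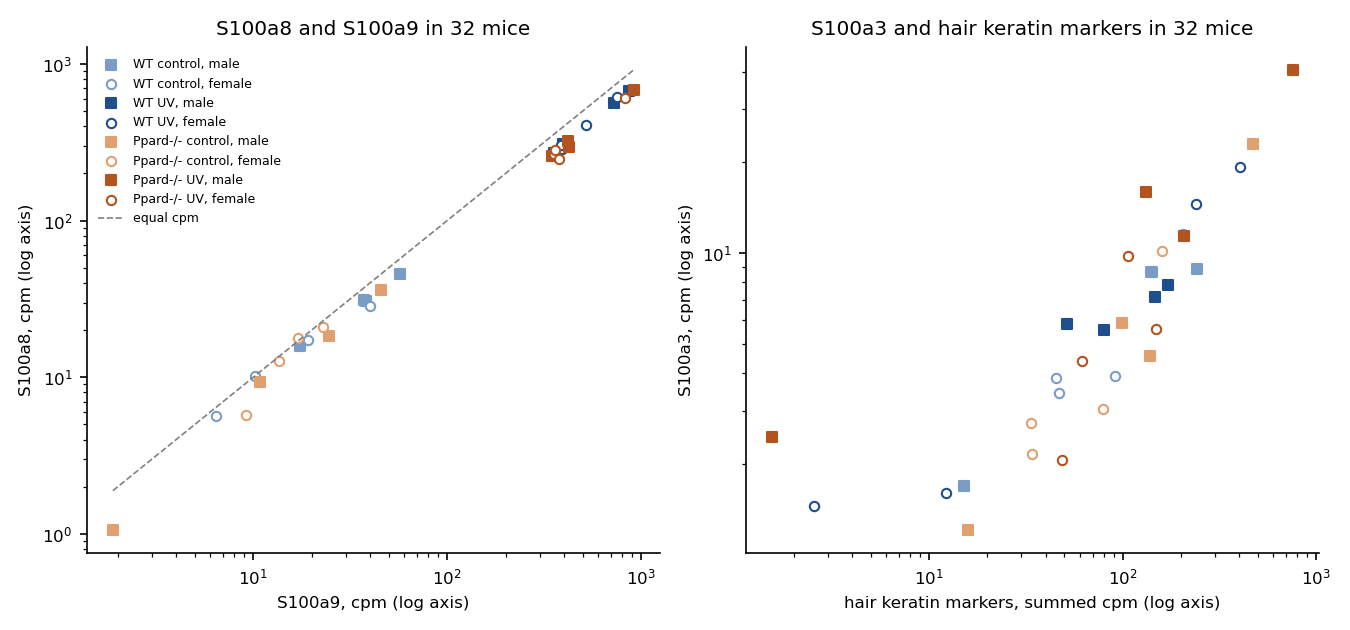
Left, S100a8 against S100a9 (cpm, log axes) in 32 mice, with a dashed line at equal cpm; right, S100a3 (cpm) against the summed cpm of hair keratin markers, log axes. S100a8 and S100a9 lie along a single line from Control to irradiated mice (r = 0.99 after removal of group means), and S100a3 rises with the hair keratins (r = 0.93) in mice of all groups, from 1.55 to 758 summed cpm.

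Set side by side per kilobase of transcript, the order of the genes changed with UV. In WT Control mice the medians were 823 cpm per kb for S100a14, 437 for S100a11, 383 for S100a16, 157 for S100a10, 123 for S100a6, 54.7 for S100a9, 47.0 for S100a8, 13.3 for S100a4, 10.7 for S100a3 and 0.279 for S100a7a. Ranges of neighbours were apart between S100a14 and S100a11, between S100a16 and S100a10 and between S100a3 and S100a7a, and overlapped elsewhere. In irradiated WT mice the order was S100a14 at 985, S100a11 at 919, S100a9 at 887, S100a8 at 735, S100a16 at 678, S100a6 at 326, S100a10 at 233, S100a7a at 26.2, S100a3 at 11.03 and S100a4 at 6.79 cpm per kb. There the ranges parted only between S100a16 and S100a6 and between S100a10 and S100a7a. Together the 10 genes took 0.142% to 0.189% of reads in WT Control and 0.292% to 0.405% in irradiated WT mice. S100a7a, S100a8 and S100a9 made up 0.783% to 5.46% of that sum without UV and 21.5% to 39.4% after it, against 0.329% to 5.22% and 17.8% to 35.5% in Ppard-/- mice.

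Between the genotypes, S100a4 after UV was the only call among the 10 genes. Without UV none was called by edgeR, beside 0.148% of all genes called higher and 0.0579% lower in Ppard-/- mice, and the largest difference was 0.62 ± 0.45 for S100a7a (95% interval −0.27 to 1.5, edgeR adjusted p = 0.767). For a different UV effect between genotypes edgeR called none, beside 0.515% higher and 0.251% lower of all genes, while DESeq2 called 2, S100a4 (adjusted p = 0.0212) and S100a6 (adjusted p = 0.0372). At an unadjusted p under 0.05, 3042 of the 15546 genes passed that interaction and 1324 the genotype difference without UV. For the alarmins the differences in UV effect were −0.98 (95% interval −2.10 to 0.14) for S100a7a, 0.31 (−0.84 to 1.46) for S100a8 and 0.44 (−0.71 to 1.58) for S100a9, with edgeR adjusted p of 0.348, 0.821 and 0.724. These intervals do not exclude a change of the UV effect by 1 log2 unit. The UV effects of the genotypes share no mice, but each shares its Control mice with the genotype comparison without UV and its irradiated mice with the one after UV.

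The study set out to compare the sexes in their response to UV, and none of the 10 genes was called for a different UV effect. In WT and in Ppard-/- mice 0% of all genes were called higher and 0% lower in females by edgeR in this interaction, with 419 and 1482 genes at an unadjusted p under 0.05. DESeq2 called 3 and 35 genes, none of them among the 10. For S100a8 the female minus male UV effect was 0.84 in WT mice (95% interval −0.79 to 2.47) and 0.03 in Ppard-/- mice (−1.60 to 1.66), so the 4 mice a group left wide limits. Without UV, S100a10 was higher in females by 0.49 ± 0.15 (edgeR adjusted p = 0.0498), the only one of the 10 called where 2.22% of all genes were higher and 4.64% lower in females. The Control males had 119, 48.3, 46.6 and 92.4 cpm (WT) and 63.7, 63.9, 62.6 and 38.8 cpm (Ppard-/-), and the females 118, 94.8, 79.1 and 89.4 cpm (WT) and 84.2, 89.5, 93.5 and 96.2 cpm (Ppard-/-). The Ppard-/- sexes were apart and the WT sexes overlapped, and the call was lost without any of 24 single mice (edgeR adjusted p up to 0.114). After UV none of the 10 was called between the sexes, beside 1.88% of all genes higher and 1.14% lower in females.

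Of 7 other single S100 genes listed, 6 were matched and 2 passed the filter on low counts, S100a1 and S100a13, neighbours on chromosome 3. S100a13, a carrier in the release of fibroblast growth factor 1 and interleukin 1 alpha, measured 4.33 to 8.28 cpm in WT Control and 6.01 to 9.13 cpm in irradiated WT mice (0.29 ± 0.14, edgeR adjusted p = 0.0629), and 3.78 to 6.98 and 7.75 to 15.5 cpm in Ppard-/- mice (1.18 ± 0.14, edgeR adjusted p = 2.59e-08). It rose more in Ppard-/- mice (difference of the effects 0.88 ± 0.20, edgeR adjusted p = 0.0281), a call lost without any of 9 single mice. S100a1 had a log2 fold change of 0.37 ± 0.21 in WT (edgeR adjusted p = 0.114) and rose by 1.09 ± 0.21 in Ppard-/- mice (edgeR adjusted p = 3.41e-05), with no call for the difference (0.73 ± 0.29, edgeR adjusted p = 0.17). S100a5, S100b, S100g and S100z had at most 8 reads in any mouse. S100a2, noticed after its values were seen and too low to be tested, had 0 to 2 reads in WT Control and 7 to 22 reads in irradiated WT mice.

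The S100-fused genes, whose long products hold an S100 domain at 1 end and build the cornified layer, went both ways. In WT mice 3 of 7 rose and 3 fell, and in Ppard-/- mice 1 rose and 3 fell, beside the shares of all genes given above. Flg2 fell from 2221 to 5694 cpm to 118 to 246 cpm (−4.64 ± 0.25, edgeR adjusted p = 2.85e-15), and Hrnr, hornerin, from 1634 to 3590 to 340 to 867 cpm (−2.31 ± 0.17, edgeR adjusted p = 2.17e-12). Repetin, Rptn, rose from 147 to 541 to 899 to 2303 cpm (2.24 ± 0.35, edgeR adjusted p = 1.8e-06). Trichohyalin, Tchh, a hair follicle protein, rose by 1.85 ± 0.73 with wide overlap (edgeR adjusted p = 0.0261). The Tchh call was lost in 3 of 40 alternatives, over which its log2 fold change ran from 0.55 to 3.20.

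Of 10 receptors and co-receptors of extracellular S100 proteins, 5 rose and 1 fell in WT mice and 8 rose and 1 fell in Ppard-/- mice, where 34.5% and 37.3% of all genes rose and 36.5% and 33.5% fell. Cd14, a co-receptor of Tlr4, rose from 0.488 to 2.44 cpm to 10.1 to 43.5 cpm (4.13 ± 0.37, edgeR adjusted p = 8.06e-11) and Tlr4 itself from 0.127 to 0.401 to 0.363 to 1.77 cpm (1.81 ± 0.46, edgeR adjusted p = 0.000868). Mcam, a receptor for S100A8 with S100A9, rose from 0.111 to 1.60 cpm to 0.587 to 39.5 cpm, with overlapping ranges (5.28 ± 0.58, edgeR adjusted p = 5.88e-09), and Myd88, the adaptor of Toll-like receptors, by 1.39 ± 0.06 (edgeR adjusted p = 5.93e-17). Ager, the receptor for advanced glycation end products, named for its role after values were seen, was low, at 0.482 to 1.27 and 0.242 to 1.23 cpm, with no call (edgeR adjusted p = 0.166). The median log2 fold change of the list was 0.84 in WT mice.

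Of 10 annexins and other partners inside the cell, 5 rose and 3 fell in WT mice and 6 rose and 2 fell in Ppard-/- mice, with a list median of 0.26 and 0.36. Of all genes 34.5% and 37.3% rose and 36.5% and 33.5% fell. Anxa11, a partner of S100a6, rose by 1.75 ± 0.09 (edgeR adjusted p = 3.62e-15), and Myh9, the myosin that S100a4 binds, by 1.09 ± 0.08 (edgeR adjusted p = 2.08e-12). Anxa6 fell by 0.90 on the log2 scale (edgeR adjusted p = 0.0076) and Ahnak, a partner of the S100a10 and annexin A2 complex, fell by 0.67 (edgeR adjusted p = 3.11e-06). Anxa2, also named after values were seen, was at 1076 to 1560 and 966 to 1329 cpm, with no call (0.04 ± 0.09, edgeR adjusted p = 0.73).

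Of 15 cytokines and transcription factors known to induce S100 genes, 11 were tested, of which 8 rose and 1 fell in WT mice and 8 rose and 2 fell in Ppard-/- mice, with a list median of 1.27 and 0.97, beside 34.5% and 37.3% of all genes higher and 36.5% and 33.5% lower. Fosl1, an AP-1 subunit, rose from 1.64 to 10.7 to 146 to 247 cpm (5.18 ± 0.41, edgeR adjusted p = 7.28e-12) and Il1b from 0.913 to 3.23 to 9.97 to 36.2 cpm (3.36 ± 0.35, edgeR adjusted p = 2.04e-09). Tnf rose by 2.24 ± 0.24 (edgeR adjusted p = 2.55e-09) and Rela, a subunit of NF-kappa B, by 2.06 ± 0.10 (edgeR adjusted p = 8.64e-16). Il6, Il17a, Il17f and Il22 were too low to be tested.

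The genes outside the 10 whose pattern was most like that of S100a8, among 13075 genes with a mean of at least 1 cpm, were BC100530 (r = 0.88), Ankk1 (0.85), Stfa3 (0.84), Elk3 (0.82) and Uox (0.81). For S100a9 they were Ankk1 (0.84), BC100530 (0.83), Stfa3 (0.82), Elk3 (0.81) and Lce3a (0.80). Likeness was Pearson's r of log2 cpm over 32 mice after removal of group means, so it says nothing of UV. The UV effects of these genes differed in size. Lce3a, of the late cornified envelope, had a log2 fold change of 7.75 in WT mice, Ankk1 5.46, Elk3 2.92 and BC100530 1.77, while Stfa3, a cysteine protease inhibitor whose close copies can share reads, and Uox, with −0.52 and 0.43, were not called (edgeR adjusted p = 0.0573 and 0.568). Without the 2 mice farthest from the median, r fell to between 0.59 and 0.78.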

How the data were processed

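RNA-seq libraries of epidermis from 32 mice (stranded mRNA, single reads) were used. Per the labels, the authors processed reads with cutadapt 1.8, STAR 2.5.3a and HTSeq 0.9.1 on GRCm38 and deposited raw counts of 55401 genes. Entries counted as not unique made up 31.4% to 38.8% of the aligned entries. Those on no gene made up 6.80% to 9.75% of a smaller total, without the not unique ones. Both were left out here, and unaligned reads are in neither total. Reads that map to several places are lost, which can lower genes with near-identical copies.

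Counts were analysed in R 4.3.3 with edgeR 4.0.16 (TMM, quasi-likelihood, 8 group means over all mice), after dropping genes that reached 1 cpm in no mouse, which left 15546 genes. Adjusted p-values are Benjamini-Hochberg over these genes. Standard errors were worked back from the log2 fold change and the F value of the same fit. The 95% intervals use quantiles of the normal distribution, so they are somewhat narrower than the F test would give. Correlations used log2 cpm (prior count 1) minus group means, with two-sided permutation within groups. Levels per kb used the median transcript length of GENCODE M21. Alternatives were RLE scaling, limma-trend 3.58.1, DESeq2 1.42.0, other filters, 1 genotype or sex in the fit, and leaving out each mouse. The fit was tested on simulated data.

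All mice are separate animals, with replicate numbers in accession order. The S100A genes and all lists were chosen with earlier results of these data known, and counts in them are descriptions. Of each related list, the up to 4 called genes with the largest change in WT mice are named, with exceptions marked in the text. Counts of reads limit the precision of low genes such as S100a7a without UV.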

Additional observations from a re-analysis of the deposited data

Results flagged for a closer look

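S100a13 rose more with UV in Ppard-/- than in WT mice, with a difference of 0.88 ± 0.20 on the log2 scale (edgeR adjusted p = 0.0281). Over 39 alternatives the adjusted p ran from 0.0046 to 0.63, and 12 of them lost the call.

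Each of the 10 genes was checked in each of the 8 groups of 4 mice, which made 80 checks. In 7 of them, 1 mouse stood far from the other 3 by Dixon's ratio (over 0.829). Chance alone gives about 1 in 20 checks. The checks share mice and are not independent, and S100a8 and S100a9 flagged the same mouse. S100a3 was at 11.54 cpm in WT Control female 2, with the others at 3.43 to 3.91, and at 1.689 cpm in WT Control male 4, with the others at 8.66 to 8.86. S100a4 was at 4.576 cpm in Ppard-/- Control female 4, against 6.62 to 6.74. Irradiated Ppard-/- female 3 had 610.1 cpm of S100a8, against 247 to 281, and 828.6 cpm of S100a9, against 355 to 378. S100a10 was at 38.8 cpm in Ppard-/- Control male 4, against 62.6 to 63.9, and S100a11 at 773.3 cpm in irradiated WT female 4, against 423 to 462.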

How the results depend on the processing

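The 17 UV calls of S100A genes in the 2 genotypes kept their direction and call in 679 of 680 alternatives, the exception being S100a14 in Ppard-/- females alone. No called result reversed, while 136 values of S100A genes that were not called changed sign. For the genotype-by-UV interaction, 119 genes were called, 55 with no filter on low counts, 792 with DESeq2, 6 in males, 12 in females and 56 to 346 when 1 mouse was left out, and 0 of the 10 S100A genes, 2 with DESeq2 and 0 to 2 when 1 mouse was left out. Without UV, 32 genes differed by genotype, 78 with DESeq2, 5 in males, 2 in females and 20 to 45 without 1 mouse. After UV, 514 did, 260 with limma-trend, 263 with no filter, 1116 with DESeq2, 7 in males, 1383 in females and 133 to 983 without 1 mouse, and 1 S100A gene, 0 with no filter, 0 in males and 0 to 2 without 1 mouse. For the sex-by-UV interaction, 0 genes were called by edgeR in either genotype, 3 (WT) and 35 (Ppard-/-) by DESeq2, and in Ppard-/- mice 1 with 1 genotype in the fit and 0 to 2 without 1 mouse. Without UV, 1066 genes differed by sex, 653 with filterByExpr, 327 with no filter, 1676 with DESeq2 and 464 to 1753 without 1 mouse, and 1 S100A gene, 0 with filterByExpr, 0 with no filter and 0 to 1 without 1 mouse. After UV, 471 did, 239 with no filter, 1196 with DESeq2 and 117 to 1043 without 1 mouse. The causes were not tested. The S100a4 interaction was called without irradiated WT female 4, Ppard-/- male 2 or Ppard-/- female 1 (edgeR adjusted p = 0.017, 0.0427 and 0.0477), and that of S100a6 without irradiated WT female 4 or Control WT female 3 (0.0477 and 0.0478). No paired analysis was possible because the labels give no replicate numbers shared between groups.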
